A study of Mus musculus with 2 samples.

Results

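The replication-dependent histone genes encode the core and linker histones that package newly copied DNA, and most of them lie in 2 clusters on chromosomes 13 and 3 of the mouse. They were taken here as all protein-coding genes of the GENCODE M21 annotation of mm10 whose symbol starts with Hist, a cluster number from 1 to 4 and h. The rule gave 67 of 21938 protein-coding genes: 6 of linker histone H1, 18 of H2A, 18 of H2B, 12 of H3 and 13 of H4. On chromosome 13 a first block of 23 genes spanned 327.1 kb and a second block of 31 genes spanned 403.4 kb, with 1487.8 kb between them. The chromosome 3 cluster held 10 genes in 49.9 kb, chromosome 11 held Hist3h2a and Hist3h2ba, and chromosome 6 held Hist4h4.

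Trimethylation of lysine 4 of histone H3 (H3K4me3), a histone modification of promoters in use or held ready, was profiled with ChIP-seq in MEL cells, which are an immortalized mouse erythroleukaemia line. The data were peak lists of 2 biological replicates of 1 group, with no second condition, and both libraries name the same cell sample. The labels give no genotype, treatment or cell-cycle stage. The deposited lists hold 51781 peaks for replicate 1, 41501 for replicate 2 and 37379 replicated peaks on chromosomes 1 to 19, X and Y, but no read counts, so the depth is unknown.

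These genes differ from other genes in how they are used. They are transcribed mainly while DNA is being replicated, from nuclear bodies organised by the protein NPAT, and their messages end in a conserved stem-loop in place of a poly(A) tail. They are short, nearly all lack introns, and many copies encode the same protein, so that each type of histone can be made in bulk within one S phase. Because the copies resemble each other, short reads from them can match more than 1 place in the genome.

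Copying was visible in the annotated sequences. The 13 H4 genes encode 1 protein of 103 residues and the 12 H3 genes encode 2 proteins, whereas the 18 H2A genes encode 9, the 18 H2B genes 11 and the 6 H1 genes 6. Of the 67 genes, 62 have 1 exon and 63 have 1 annotated transcript start. The stem-loop that binds SLBP, the protein that escorts histone messages, was searched on the sense strand within 200 bases after the stop codon. A match with both arms of the stem paired lay 27 to 62 bases after the stop codon in 51 genes. It was found in 5 of 6 H1, 15 of 18 H2A, 13 of 18 H2B, 8 of 12 H3 and 10 of 13 H4 genes. The search fixed the loop and let only the middle of the stem vary, so the shared loop of all matches is not a result. Forms that vary elsewhere may have been missed by the search, so a gene without a match may still carry a stem-loop. The 3 forms found are shown because they split by histone type, with all 16 bases, stem and loop, in capitals. The first form, at chr3:96238485-96238500 in Hist2h3c2, was carried by 41 genes of H1, H2A, H2B and H3 and by no H4 gene. The other forms belonged to H4 genes alone, 8 with the second, as Hist1h4h at chr13:23531458-23531473, and 2 with the third, as Hist1h4j at chr13:21735437-21735452. Coordinates are on GRCm38.p6, with Hist2h3c2 on the minus strand and both H4 genes on the plus strand.
Hist2h3c2 stem-loop: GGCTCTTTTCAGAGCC
Hist1h4h stem-loop: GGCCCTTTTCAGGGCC
Hist1h4j stem-loop: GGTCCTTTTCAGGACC
The genes with a match comprised 40 of the 55 with a peak and 11 of the 12 without one.

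Promoters carried letters that differed in frequency between types. RefSeq entries of 250 bases before to 50 bases after the gene start, on GRCm38.p6, were matched for 62 of the 67 genes by current or older symbol and position. On either strand, the CCAAT box (CCAAT) was present in all 6 H1, 18 H2A, 16 H2B and 10 H3 promoters but in 3 of 12 H4 promoters, and in 38.2% of 21263 protein-coding promoters. The core of the H4 element bound by HINFP (GGTCCG) was present in 11 of 12 H4 promoters, in 2 of the other histone promoters and in 10.5% of all. The octamer (ATTTGCAT), a site for OCT1 in H2B promoters, was present in 6 H2B and 7 H2A promoters, in no H1, H3 or H4 promoter and in 1.66% of all. Windows of divergent H2A and H2B genes overlap, so the same octamer can count for both. This was so for Hist1h2ae with Hist1h2bg, Hist1h2ah with Hist1h2bk and Hist1h2aa with Hist1h2ba. The AC box of H1 promoters (AAACACA) was present in 5 of 6 H1, 2 of 18 H2A and 2 of 16 H2B promoters, in no H3 or H4 promoter and in 6.15% of all, and TATAAA in 56.5% of histone promoters and 12.6% of all. These are matches of letters in the window, and binding was not measured.

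Promoter sequences are shown for genes on which the results turn, with the matched letters in capitals. The first lies between the divergent genes Hist2h2ac and Hist2h2be at chr3:96220831-96221130 on the minus strand, and the others belong to the H1, H2A, H3 and H4 genes with the highest peak signal of their type. Their windows are chr13:23738557-23738856 for Hist1h1c, chr3:96245247-96245546 for Hist2h2aa1, chr3:96268404-96268703 for Hist2h3b and chr13:23530794-23531093 for Hist1h4h, all on the plus strand.
Hist2h2ac: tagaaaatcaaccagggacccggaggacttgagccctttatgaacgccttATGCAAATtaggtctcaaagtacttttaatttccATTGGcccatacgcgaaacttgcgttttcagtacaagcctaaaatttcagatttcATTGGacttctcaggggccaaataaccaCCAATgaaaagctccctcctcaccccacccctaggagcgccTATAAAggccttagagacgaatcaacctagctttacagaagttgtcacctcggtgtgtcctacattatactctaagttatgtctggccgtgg
Hist1h1c: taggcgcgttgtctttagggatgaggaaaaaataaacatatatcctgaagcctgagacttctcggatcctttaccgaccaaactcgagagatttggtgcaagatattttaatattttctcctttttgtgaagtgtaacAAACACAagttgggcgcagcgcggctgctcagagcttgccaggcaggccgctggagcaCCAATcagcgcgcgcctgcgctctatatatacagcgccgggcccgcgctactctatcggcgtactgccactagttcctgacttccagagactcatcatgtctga
Hist2h2aa1: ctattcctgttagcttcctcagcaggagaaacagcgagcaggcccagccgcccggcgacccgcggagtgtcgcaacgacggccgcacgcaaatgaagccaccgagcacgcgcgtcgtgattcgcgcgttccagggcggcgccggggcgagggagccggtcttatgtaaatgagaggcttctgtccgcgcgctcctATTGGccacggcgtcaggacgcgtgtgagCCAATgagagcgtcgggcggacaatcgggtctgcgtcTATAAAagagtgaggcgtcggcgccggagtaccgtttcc
Hist2h3b: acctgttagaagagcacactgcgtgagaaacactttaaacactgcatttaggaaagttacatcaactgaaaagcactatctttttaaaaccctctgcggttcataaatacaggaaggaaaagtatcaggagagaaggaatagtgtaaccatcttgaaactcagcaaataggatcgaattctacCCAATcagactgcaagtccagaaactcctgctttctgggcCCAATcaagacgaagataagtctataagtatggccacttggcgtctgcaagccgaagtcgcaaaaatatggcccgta
Hist1h4h: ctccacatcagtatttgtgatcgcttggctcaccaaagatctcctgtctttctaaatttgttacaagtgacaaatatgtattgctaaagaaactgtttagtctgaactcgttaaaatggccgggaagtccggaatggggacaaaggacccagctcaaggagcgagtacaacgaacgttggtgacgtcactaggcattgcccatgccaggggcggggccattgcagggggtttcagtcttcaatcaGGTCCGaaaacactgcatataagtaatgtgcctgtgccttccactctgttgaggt
The last 3 come from unmarked genes, those with no H3K4me3 peak within 1000 bp of a start. Hist1h4d at chr13:23581318-23581617 on the plus strand and Hist1h4m at chr13:21811496-21811795 on the plus strand encode the same H4 protein as Hist1h4h, and Hist1h2ba at chr13:23934107-23934406 on the minus strand is a testis H2B gene.
Hist1h4d: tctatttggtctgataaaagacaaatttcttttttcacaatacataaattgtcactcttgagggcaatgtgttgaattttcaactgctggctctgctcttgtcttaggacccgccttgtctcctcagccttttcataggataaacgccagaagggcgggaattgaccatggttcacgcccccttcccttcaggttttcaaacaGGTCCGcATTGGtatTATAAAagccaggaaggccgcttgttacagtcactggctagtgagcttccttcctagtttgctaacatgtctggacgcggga
Hist1h4m: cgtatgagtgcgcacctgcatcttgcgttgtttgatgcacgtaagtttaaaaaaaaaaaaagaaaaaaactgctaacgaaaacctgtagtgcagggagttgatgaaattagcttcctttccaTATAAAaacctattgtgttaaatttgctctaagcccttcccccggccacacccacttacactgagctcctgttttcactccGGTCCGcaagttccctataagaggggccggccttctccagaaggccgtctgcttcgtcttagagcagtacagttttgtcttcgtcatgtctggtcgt
Hist1h2ba: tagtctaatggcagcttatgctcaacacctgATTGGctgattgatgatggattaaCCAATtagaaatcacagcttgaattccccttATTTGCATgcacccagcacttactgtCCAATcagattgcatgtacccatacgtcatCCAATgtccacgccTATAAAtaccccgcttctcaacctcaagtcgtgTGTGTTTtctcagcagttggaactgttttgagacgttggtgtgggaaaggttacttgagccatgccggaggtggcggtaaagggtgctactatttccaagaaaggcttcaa
Hist1h4d and Hist1h4m held the H4 element core and the letters TATAAA, which in Hist1h4m lay upstream of the core. The core was present in 4 of 4 unmarked H4 promoters and in 7 of 8 marked ones. Hist1h2ba held 4 CCAAT boxes, the octamer, the letters TATAAA and, on the opposite strand, the letters of the H1 AC box.

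Most histone genes were marked. Counting genes with a replicated peak no farther than 1000 bp from one of their transcript starts as marked, 55 of 67 (82.1%) were, against 50.3% of all protein-coding genes. Histone promoters are rich in CpG, a feature that itself goes with H3K4me3: 49 of the 67 fall in the high-CpG class, of which 79.8% were marked over all genes. All 12 H3 genes were marked, as were 15 of 18 H2A, 5 of 6 H1, 14 of 18 H2B and 9 of 13 H4 genes. By place, 17 of 23 were marked in the first chromosome 13 block, 26 of 31 in the second and 10 of 10 on chromosome 3, with Hist3h2a on chromosome 11 and Hist4h4 on chromosome 6. The H1 gene Hist1h1t, known as testis-specific, was among them. Its only peak within 1000 bp began 327 bp downstream of the start, in a stretch of peaks that also reached the H4 gene Hist1h4c.

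The replicate lists gave nearly the same genes. Replicate 1 marked 57 and replicate 2 marked 53 (55 ± 2.83, SD, n = 2), against 50.4% and 50.9% of all genes, and 53 were marked in both. Only 4 genes differed: the H1 gene Hist1h1d and the H4 gene Hist1h4b had a peak in replicate 1 alone and were not in the replicated call, and the divergent H2B and H2A genes Hist1h2bf and Hist1h2ad were marked in the replicated list without a replicate 2 peak. In replicate 1, where the median signal of marked histone genes was 4.77, the values at these genes were 2.75 for Hist1h1d, 2.16 for Hist1h4b, 4.77 for Hist1h2bf and 4.16 for Hist1h2ad.

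Peaks at histone genes were weak. The peak signal value is a score given by the authors, which the deposited notes do not define, and it was used to describe and rank peaks within a list. The strongest start peak of the 55 marked histone genes had a median signal of 3.56 (1.84 to 10.53), against a median of 13.78 over 11037 marked genes. In replicate 1 these medians were 4.77 and 12.13, and in replicate 2 they were 3.24 and 15.5. All 55 ranked below the middle of the list of marked genes, and 49 of them in its lowest 10%. Weaker marking in every cell, marking in fewer cells and loss of reads that match more than 1 place cannot be told apart in such data.

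**Figure D1:**
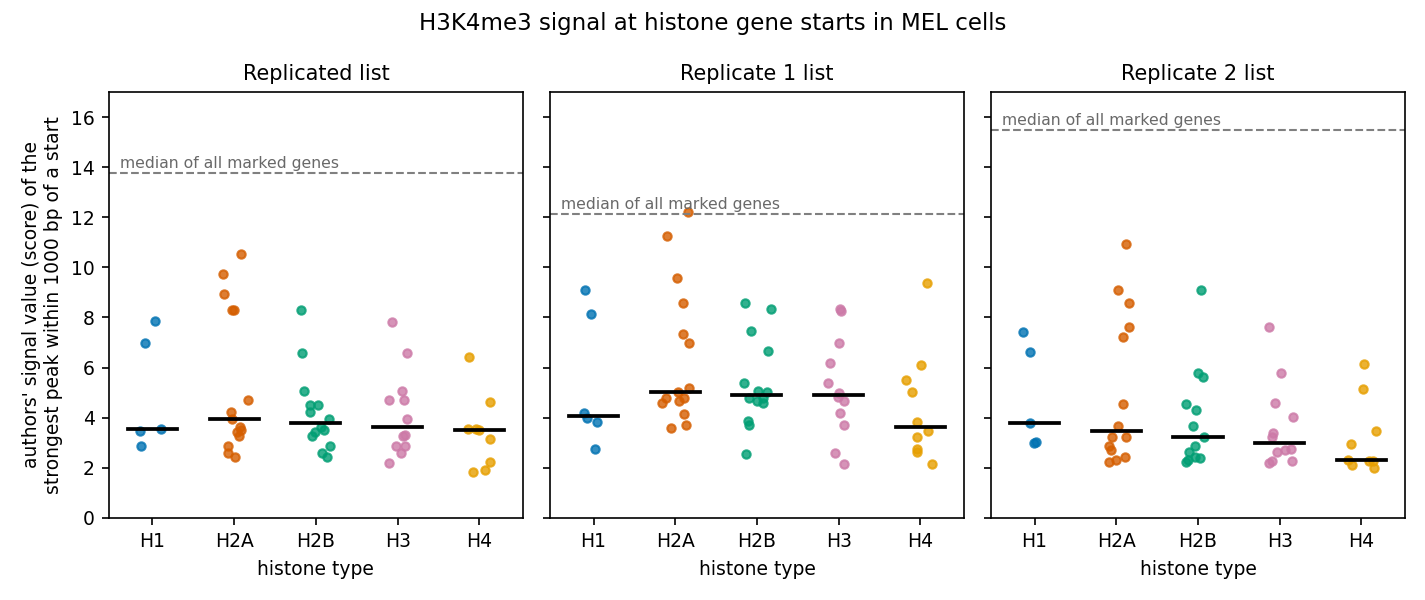
Authors' signal value (score) of the strongest peak within 1000 bp of a start, for histone genes by type, with 1 plot each for the replicated list and both replicates. Each point is 1 gene, black bars are medians by type and the dashed line is the median of all marked genes in that list, which was 13.78, 12.13 and 15.5. In the replicated list all 55 histone genes lie below the line.

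The order of the genes was led by chromosome 3. Its 10 genes had a median of 8.04, whereas the blocks of chromosome 13 had medians of 3.5 and 3.58. The highest value belonged to the H2A gene Hist2h2aa1, with 10.53 in the replicated list, 12.2 in replicate 1 and 7.6 in replicate 2. Hist3h2a, an H2A gene alone with Hist3h2ba on chromosome 11, had 9.72, 11.27 and 10.95 in the same order. For Hist2h2aa2, the inverted copy of Hist2h2aa1, the values were 8.95, 9.56 and 7.23. The next 3 genes, also on chromosome 3, each had 8.29 in the replicated list, the H2A genes Hist2h2ab and Hist2h2ac and the H2B gene Hist2h2be. Hist2h2ac and Hist2h2be shared a peak, and the strongest peak of Hist2h2ab was a different one. Replicate 1 and replicate 2 gave 7.35 and 8.58 for Hist2h2ab, and 8.57 and 9.11 for the peak of the other pair.

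The lowest values were those of H4 and H3 genes and 1 divergent pair. Hist1h4c had 1.84 in the replicated list, 3.81 in replicate 1 and 2.26 in replicate 2, the lowest of all 11037 marked genes. Hist1h4f had 1.9, 2.75 and 2.09, and Hist1h4a had 2.24, 2.63 and 1.97. The H3 gene Hist2h3c2 had 2.18, 2.16 and 2.28. The divergent H2A and H2B genes Hist1h2ak and Hist1h2bn shared a peak of 2.42. With peaks of −log10 q of at least 5, 6 H4 genes were marked in place of 9, and 50 histone genes in place of 55, against 49.5% of all protein-coding genes in place of 50.3%.

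Among the linker histones, which bind where DNA enters and leaves the nucleosome, 2 stood above the rest. Hist1h1c had 7.86 in the replicated list, 9.1 in replicate 1 and 7.41 in replicate 2. Hist1h1e had 6.98, 8.13 and 6.62. The testis gene Hist1h1t followed with 3.55, 3.81 and 2.99, close to Hist1h1b with 3.46, 3.97 and 3.8 and to Hist1h1a with 2.86, 4.19 and 3.02. For Hist1h1b a peak of 9.61 lay in the same domain, beyond 1000 bp of the start. Hist1h1d was unmarked by its GENCODE start, which lies 1828 bp before the first coding base. The peak nearest to that start, with a signal of 1.85, was 1189 bp away. A different peak lay 144 bp from the RefSeq start. With RefSeq starts all 6 H1 genes and 56 of 67 genes were marked.

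The start base of histone genes lay in gaps between peaks. Of the 55 genes with a peak within 1000 bp of the 5′-most start, 2 (3.64%) had the start base inside a peak, against 59.3% of 10287 protein-coding genes with such a peak. A further 33 (60%) had peaks on both sides of the start, against 32.2% of all, 11 had a peak upstream only and 9 downstream only. The H2A gene Hist2h2ab and the H3 gene Hist1h3f were the 2 inside a peak, and the annotated start of Hist1h3f lies 433 bp before its first coding base. Counting every annotated start, 3 of 67 genes had a start base inside a peak, against 43.5% of all genes. Other short genes did not share this position: 75.3% of 97 other single-exon genes of up to 2 kb had the start inside a peak.

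Both replicate lists showed the gap. The start base was inside a peak in 3.51% of marked histone genes in replicate 1 and 3.77% in replicate 2 (3.64 ± 0.184%, SD, n = 2). Each share rests on 2 genes. Over all genes the shares were 36.8% and 68.2%. Histone starts with peaks on both sides made up 64.9% in replicate 1 and 56.6% in replicate 2, and their median gap was 859 and 667.5 bp. In the replicated list, starts flanked on both sides sat in a gap with a median of 667 bp (223 to 1556), against 179 bp over all flanked genes. Its upstream edge lay a median of 293 bp before the start and its downstream edge 387 bp after it. The nearest summit was a median of 538 bp from a start, against 143 bp over all marked genes.

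**Figure D2:**
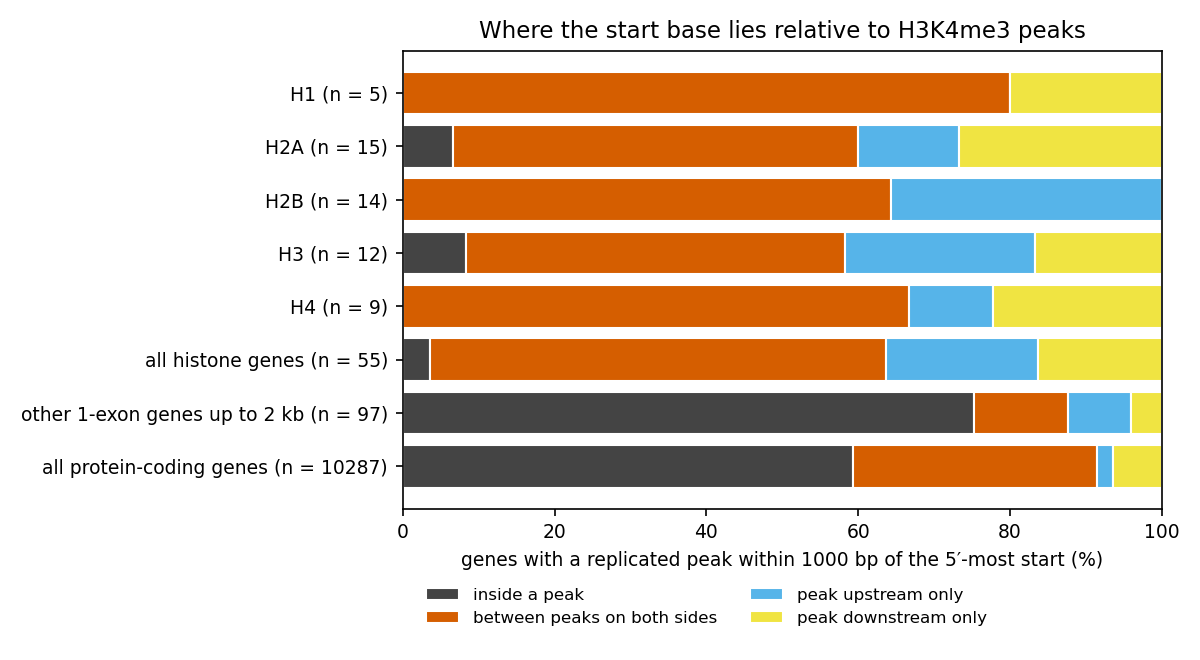
Percent of genes with a replicated peak within 1000 bp of the 5′-most start whose start base lies inside a peak, between peaks on both sides, or beside a peak on 1 side, for each histone type and for 2 reference sets. The start was inside a peak for 3.64% of histone genes, 75.3% of other short single-exon genes and 59.3% of all.

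The window and the sharing rule changed the count where peaks lie so far from the starts. Within 500 bp of a start 43 histone genes had a peak, against 49.6% of all genes, and the count for H2B fell from 14 to 7. With each peak given to the gene of the nearest start, 48 were marked, against 47.6% of all genes. Of the marked genes, Hist1h2bk had the most distant nearest peak, at 691 bp, and the unmarked genes closest to the limit were Hist1h1d at 1189 bp and Hist1h4d at 2539 bp.

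Gaps coincided with repeated sequence over the coding region. A 32-base word was called repeated if the genome holds it, on any strand, in at least 1 other place. Within 1000 bp of the starts of marked histone genes, 4.79% of 19418 bases that start a repeated word lay in a peak, against 54.2% of 63825 other bases. In the 33 flanked genes a median of 45.8% of words in the gap were repeated (0 to 69.1%), against 0.397% in their peaks, and the gap was the more repeated in 28. At 200 bp after the start, inside the coding sequence of most of these genes, 80% of the 55 marked genes had a repeated word and 10.9% had a peak, whereas 84.3% of all marked genes had a peak. Mappability of reads was not measured, and the part of repeated sequence in the gap was not tested.

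Repeated words did not cover the whole gap. At 100 bp before the start 7.27% of marked histone genes had a repeated word, yet 5.45% had a peak there, against 51.7% of all marked genes, which also dipped at that place. In 6 flanked genes under 10% of words in the gap were repeated, and 4 of them had none: Hist3h2a, with a gap of 284 bp, Hist1h1b with 226 bp, Hist1h1a with 376 bp and Hist1h2be with 223 bp. The gap of Hist1h2be lies at an annotated start 35.2 kb from its reading frame, beside Hist1h1e, and not at its coding sequence. The other two were the H4 genes Hist2h4, with 570 bp, and Hist4h4, with 1081 bp. Of the 10 histone genes with under 10% repeated promoter words 8 were marked, against 56.4% of all such genes, with a median signal of 3.5. Of those 8, 1 gene, Hist1h3f, had the start inside a peak, against 60.5% of 9508 other genes of that class. The 10 include Hist1h3f, Hist1h1d and Hist1h2be, whose 5′-most starts lie 433, 1828 and 35168 bp from the first coding base.

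**Figure D3:**
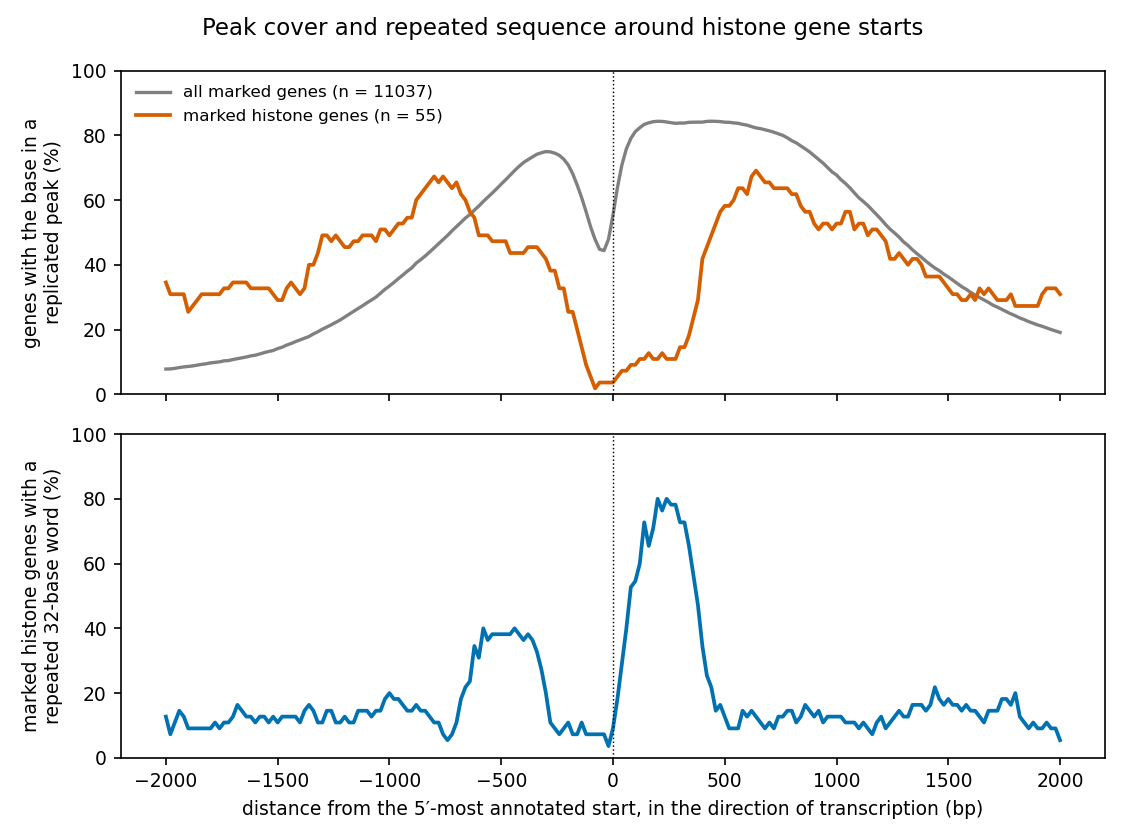
Upper plot, percent of genes whose base at each distance from the 5′-most start lies in a replicated peak, for 55 marked histone genes and for 11037 marked genes. Lower plot, percent of the 55 histone genes with a repeated 32-base word at that distance. Peak cover of histone genes falls to 3.64% at the start, and repeated words reach 80% at 200 bp after it.

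Coding sequences separated H1 from the core histones. In the 5 marked H1 genes peaks covered a median of 59.9% of the coding sequence (48.4 to 93.3%), of which a median of 3.92% was repeated. Linker histone sequences vary most between copies. The medians of cover were 2.82% in H2A, 2.57% in H3, and 0 in H2B and H4 genes, where medians of 76.6% to 90.8% of the coding sequence were repeated. In all, 32 of 55 marked genes had no coding base in a peak, and 7 had more than 50% covered. Besides the H1 genes with over 50%, these were Hist3h2a with 96.9% of its coding sequence covered and 18.7% repeated, Hist2h2ab with 90.3% and 33.1%, and Hist2h2be with 100% and 16.7%. The H4 gene Hist4h4 went against this order: 0.36% of its coding sequence was repeated and none of it was covered, as in Hist2h4, with 12.6% repeated, and Hist2h2bb, with 6.34%.

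**Figure D4:**
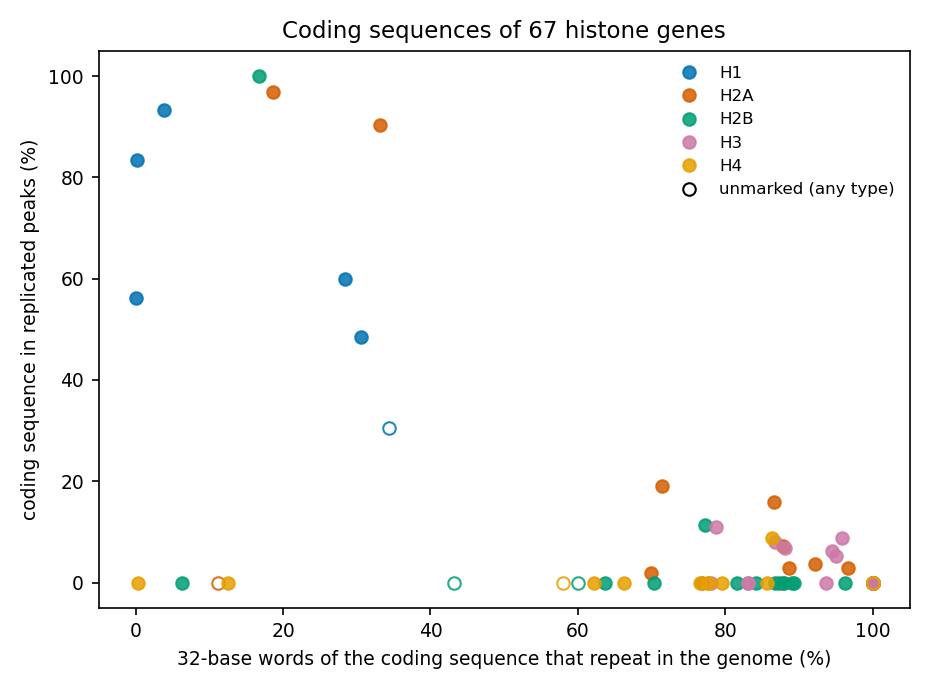
Percent of the coding sequence in replicated peaks against the percent of its 32-base words that are repeated in the genome, 1 point for each of 67 histone genes, coloured by type, with open circles for unmarked genes. Marked H1 genes lie between 48.4% and 93.3% cover, and most core histone genes lie near 0 cover at high repeated shares.

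The 12 genes without a peak fell into groups by position. A set of 6, the H2B genes Hist1h2bq and Hist1h2br, the H2A genes Hist1h2ao and Hist1h2ap and the H4 genes Hist1h4m and Hist1h4n, belong to an inverted duplicate in the first chromosome 13 block. Its arms span 5536 and 5764 bp, chr13:21806612-21812147 and chr13:21831767-21837530, and 99.4% of the words of the first arm occur reversed in the second. No base of either arm lay in a replicated peak, and 96.2% to 100% of the promoter words of these 6 genes were repeated. Absence of a peak there cannot be told apart from absence of uniquely placed reads. Their nearest replicated peak, at chr13:21822325-21822530 with a signal of 3.67, lay 9666 to 12128 bp away, between the arms. In replicate 1 a peak lay 1288 bp from Hist1h4n, 2599 bp from Hist1h2ap and 2835 bp from Hist1h2br, the genes of the second arm, and for those of the first arm the nearest was 10492 to 12041 bp away. In replicate 2 the distances from Hist1h4n, Hist1h2ap and Hist1h2br were 9292, 10603 and 10839 bp.

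A second inverted duplicate, on chromosome 3, was marked at its ends. Hist2h3c2 and Hist2h2aa2 mirror Hist2h2aa1 and Hist2h3c1. With arms again taken from the gene ends, 80.3% of the words of the first arm occur reversed in the second. Promoters of the H3 genes were 96.7% repeated, yet each had a peak more than 600 bp downstream, at 616 and 623 bp, past the coding sequence. The H2A genes had peaks upstream, in the sequence between the arms, with edges 257 bp before Hist2h2aa2 and 159 bp before Hist2h2aa1. None of the 4 coding sequences was covered, and all 4 were 100% repeated.

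**Figure D5:**
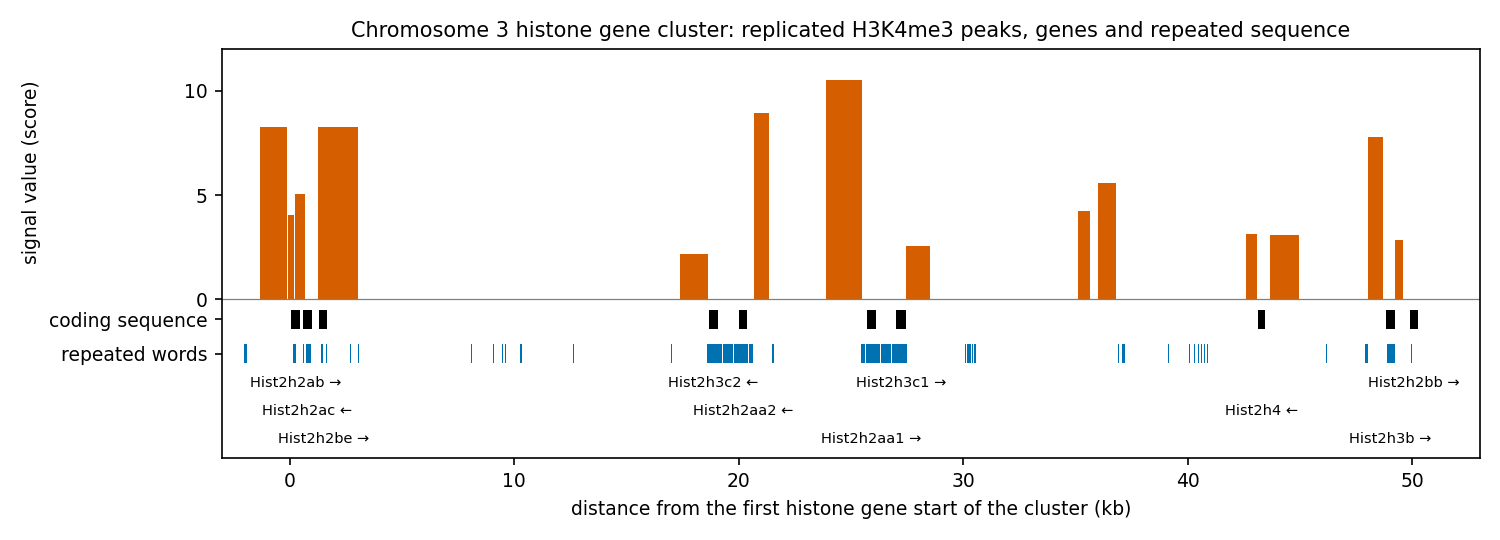
Replicated H3K4me3 peaks (orange, height is the signal score), coding sequences (black) and repeated 32-base words (blue) across the chromosome 3 cluster, against distance from its first histone gene start in kb, with arrows for the strand. Peaks flank the duplicated sequence around 18 to 28 kb, and the strongest, of 10.53, lies between its arms.

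The other unmarked genes had promoters that were less repeated. Hist1h2ba and Hist1h2aa, divergent H2B and H2A genes known from testis, stand at the far end of the second block, and their nearest peak was 19222 and 19528 bp away. Their promoter words were 17.6% and 4.95% repeated. Hist1h4d had its nearest peak at 2539 bp, or 1079 bp in replicate 1 and 2819 bp in replicate 2, and Hist1h4b at 3388 bp, or 829 bp in replicate 1 and 3423 bp in replicate 2. Hist3h2ba, on chromosome 11, lay 4516 bp from the peak of Hist3h2a. Promoter repeats were 18.5% for Hist1h4d, 22.3% for Hist1h4b and 22.9% for Hist3h2ba, below the median of 36.4% in marked histone genes.

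Divergent pairs lay within reach of the same peaks. H2A and H2B genes often start back to back, and 13 pairs of histone genes on opposite strands started within 1000 bp of each other, 12 of them of H2A with H2B. Their starts were 176 to 660 bp apart (median 268). Both genes were marked in 10 pairs and neither in 3, the pairs of the chromosome 13 duplicate and the testis pair. Starts so close are reached by the same peak within 1000 bp, so the rule itself favours the same call for both genes. With each peak given to the nearest start alone, Hist2h2ac, Hist1h2ai, Hist1h2bn, Hist1h2bk, Hist1h2bj and Hist1h2ad were not marked while their partners were. In 9 of the 10 marked pairs no peak touched the span between the starts. No marked pair had a repeated word in that span. Over all marked genes peak cover also dipped just before the start, to 44.4% of genes at 40 bp before it. Of the marked pairs, 6 had peaks on both sides, with 608 to 1335 bp between them (median 1124.5), and 4 had a peak on 1 side, with a second peak reaching between the starts in Hist1h2bh and Hist1h3f.

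The pairs with the highest signal were Hist2h2ac with Hist2h2be at 8.29, Hist1h2bh with the H3 gene Hist1h3f at 6.57, and Hist1h2an with Hist1h2bp at 4.49. Replicate 1 and replicate 2 gave 8.33 and 5.8 for the peak of Hist1h2bh and Hist1h3f, which was the peak that reached between the starts. The lowest values of marked pairs were those of Hist1h2ak with Hist1h2bn at 2.42, Hist1h2ae with Hist1h2bg at 2.6 and Hist1h2bf with Hist1h2ad at 3.25. Between Hist2h2ac and Hist2h2be, whose shared promoter is printed above, the gap was 608 bp and 38.5% repeated, while the 239 bp between the starts held no repeated word.

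Peaks were shared more widely than by pairs. The marked genes were reached by 70 distinct peaks, 23 of which reached more than 1 histone gene and at most 3. Of the 55 marked genes 36 shared a peak with another histone gene, and for 22 every peak was shared, so neighbouring calls are not independent. Non-histone genes were reached by 6 of the 70 peaks. Hist1h2be is a special case: its 5′-most annotated start lies 35.2 kb from its reading frame, beside Hist1h1e, with a start-peak signal of 5.06. At the reading frame itself a stronger peak, chr13:23584137-23585550 with a signal of 8.11, ended 29 bp from the coding sequence, on its downstream side.

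Merged domains were short. Replicated peaks joined across gaps of up to 1000 bp gave 34 domains that reached histone genes in the 3 blocks, 10 and 17 on chromosome 13 and 7 on chromosome 3, and 20 of them reached 2 or more histone genes. Their median length was 1576.5 bp. The widest domain of each marked histone gene had a median of 1868 bp (389 to 7224), against 2258 bp over all marked genes, and 20 of the 55 exceeded that value. The widest, 7224 bp at chr13:23529685-23536908, joined 6 peaks over the H4, H2A and H3 genes Hist1h4h, Hist1h2af and Hist1h3g. The next, 4770 bp, reached Hist1h1b alone, and the third, 4393 bp, reached Hist2h2ab, Hist2h2ac and Hist2h2be on chromosome 3. Values for the strongest peak of Hist1h4h were 6.43 in the replicated list, 9.38 in replicate 1 and 6.14 in replicate 2, and Hist1h2af and Hist1h3g shared 4.69, 6.97 and 3.24.

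Counting also domains that reach no histone gene, domains covered 15.1% and 10.2% of the chromosome 13 blocks and 26.6% of the chromosome 3 cluster. Of 32, 26 and 8 domains in these spans, 10, 17 and 7 reached histone genes. The lengths of those that did summed to 18356 and 33646 bp on chromosome 13 and 12910 bp on chromosome 3. The chromosome 3 genes were also the most crowded, at 4.99 kb for each gene against 14.2 and 13 kb on chromosome 13. Other protein-coding genes inside the chromosome 13 blocks were marked in 2 of 3 and 3 of 6 cases. Between the blocks 4 of 40 were, namely Zfp322a, Abt1, Btn1a1 and Btn2a2, and the other 36 were vomeronasal receptor genes of the Vmn1r family. Abt1 had a signal of 18.2 and a domain of 16322 bp, the widest of all marked genes.

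A list of genes for histone RNA synthesis and processing and a list of histone chaperone genes were compared with the histone genes. Of the 29 genes of the first list 28 were marked, against 50.3% of all protein-coding genes and 79.8% of those with high-CpG promoters, with a median signal of 12.54, and 16 of these had the 5′-most start inside a peak. They include Npat with 12.36, the U7 snRNP subunit Lsm11 with 12.05, the stem-loop binding protein gene Slbp with 4.82 and the cap-binding subunit Ncbp1 and the factor Yy1 with 23.09 and 23.02. Gon4l was the gene without a peak. All 23 histone chaperone genes were marked, with a median of 13.33, led by Atrx with 21.27 and Asf1a with 20.66.

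Replication-independent and tissue-specific histone genes were marked in 9 of 18 cases found under their symbols, a share close to the 50.3% of all protein-coding genes, with a median of 11.49. The highest were H2afy, for macroH2A1, with 19.65 and Cenpa, the centromeric H3, with 19.28, and H3f3a, for H3.3, had 13.87. Those without a peak were H2afy2, H1fx and the germline genes H1fnt, H1foo, Hils1, H2bfm, H2afb1, H2afb2 and H2afb3. The haematopoietic transcription factor genes Gata1, Tal1, Klf1, Nfe2 and Spi1, looked at to check the line, were marked, and Alb, Cd3e, Myod1 and Snap25, of other cell types, were not.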

How the data were processed

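H3K4me3 ChIP-seq of MEL cells was analysed from the deposited narrowPeak lists on mm10. Per the deposited notes, the authors called peaks for each replicate against a control, for both replicates pooled, and derived a replicated list from these 3. The aligner, the peak caller and the rule for replication are not stated there. Per the same notes, the authors give each peak a signal score and −log10 p and q values. The lists hold no read counts, so no counting error can be given, and low depth can also leave a gene without a peak.

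From these lists, peaks within 1000 bp of GENCODE M21 starts were assigned to every gene in reach, and neighbouring peaks up to 1000 bp apart were joined into domains. A gap is the distance between the peaks nearest to a start on either side. Repeated words are 32-base words with at least 2 occurrences over both strands in the 65 sequences scanned of GRCm38.p6, and promoter words were taken from 1001 bases around the 5′-most start. High-CpG promoters have an observed to expected ratio of at least 0.6 and at least 50% GC. Sequences are from RefSeq and GRCm38.p6. The peak assignment was tested on simulated data. No test between groups was possible with 1 group, and histone genes share peaks and sequence, so counts, ranges and medians are given beside those of all genes. SDs are over 2 replicate lists.

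The genes, lists and motifs were chosen with earlier results of these data known. Genes are named by rule: all unmarked and all H1 genes, the 5 highest and 5 lowest by signal, the widest domains, pairs at both ends of the signal range, genes that differ between the lists, and solitary genes. Others were named after their values were seen. H3f3c was not found under its symbol, and 1 gene chosen to check the line is not reported here. The mm9 list was not used here. Calculations used Python 3.11.15, numpy 2.4.6, numba 0.67.0 and matplotlib 3.10.9.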

Additional observations from a re-analysis of the deposited data

How the results depend on the processing

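Of 133 alternatives, 115 kept their value within 1.5 times or within the spread of the replicates, and 18 moved. With the start base inside a peak, 3 of 55 marked genes remained: 0 H1, 1 H2A, 1 H2B, 1 H3 and 0 H4. Among the 10 promoters with under 10% repeated words 8 were marked: 3 H1, 0 H2A, 2 H2B, 1 H3 and 2 H4, a smaller set by construction. With a window of 500 bp 7 H2B genes were marked. Domains numbered 61 with a gap of 0 and 18 with a gap of 5000 bp, in place of 34, and their length of 64912 bp became 42604 bp with a gap of 0, 98782 bp with 2500 bp and 151813 bp with 5000 bp. With either replicate list alone, 53 to 57 genes were marked and starts between peaks numbered 30 to 37. RefSeq starts and the first coding base were added after the data were seen. No paired analysis was possible because there is 1 group. The depth is unknown and limits what an absent peak means.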
